A study of Mus musculus with 18 samples.

Results

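Accessible chromatin was examined at 10 genes of transposon-silencing chromatin and DNA methylation, namely Trim28, Setdb1, Ehmt2, Morc2a, Dnmt1, Uhrf1, Dnmt3a, Dnmt3b, Hells and Sirt1. The genes were chosen by name, and all sites of open chromatin that overlap their gene bodies or lie within 20 kb of either end were taken. This gave 73 of 51957 sites, at 10 of 22359 protein-coding genes. FAIRE-seq, which recovers and sequences nucleosome-depleted DNA from formaldehyde-fixed tissue, had been performed on livers of male mice of 9 strains. Of these strains 7 are inbred, namely DBA/2J, CBA/J, AKR/J, A/J, C3H/HeJ, BALB/cJ and C57BL/6J. The other 2, BXH19/TyJ and BXH2/TyJ, are recombinant inbred and derive from C57BL/6J and C3H/HeJ. All mice received the high-fat, high-sucrose (HF/HS) diet for 8 weeks from 8 weeks of age, and each strain gave 2 livers, 18 in all. No group on another diet and no females stand beside them. Each strain has 1 list of peaks that were reproducible between its mice, and values of a strain therefore carry no replicate error.

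Transposable elements make up a large share of mammalian genomes, and most of them are kept silent in somatic tissue. KRAB zinc finger proteins bind their sequences and recruit TRIM28 (KAP1), a scaffold that brings in SETDB1, an enzyme that trimethylates histone H3 lysine 9. EHMT2 (G9a) adds the mono- and dimethyl marks at the same residue, and MORC2A is an ATPase that works with the HUSH complex in compacting such chromatin. DNMT1 copies DNA methylation onto the new strand after replication, guided by UHRF1, which binds hemimethylated CpG, while DNMT3A and DNMT3B set methylation de novo. HELLS (LSH) is a SNF2-family remodeler required for methylation of repeats, and SIRT1 is an NAD-dependent deacetylase of histones and other proteins.

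Peaks of all lists were merged into sites, and a strain was said to have a site if any of its peaks shared 1 bp or more with it. A missing peak means that no reproducible peak was listed there, not that the chromatin was closed. The height of a peak is given as the percentile of its F-seq score within its strain's list, where 100 is the highest peak, since scores of different lists share no scale. In whole liver, fewer cells with an open site and less opening per cell cannot be told apart. Lists held 26769 (DBA/2J) to 30613 peaks (CBA/J), with a mean GC content of 60.1% in A/J, 57.3% in BXH2/TyJ and 54.8 to 56.6% in the other strains. Of 8 hepatocyte marker genes, Apoa1 and Apob had a peak within 1 kb of the start in all 9 strains, 5 had one in some strains (Ttr in 8, Tat in 4, Alb in 2, Fgb and Cps1 in 1 each) and Serpina1a had none. None of 6 leukocyte markers had a peak in any strain, while 1 of 4 endothelial and 3 of 4 stellate cell genes had one in at least 1 strain. The endothelial gene was Kdr, in A/J alone at 51.0. The stellate cell genes were Des in A/J alone (5.0), Lrat in C3H/HeJ alone (11.4), and Reln in A/J (47.2) and BALB/cJ (7.5). Of 3 genes of bile duct cells, Sox9 had a peak in all 9 strains, Epcam in A/J alone at a percentile of 1.6, and Krt19 in none. Of 5 genes of dividing cells, 3 had a peak in all 9 strains. Over all protein-coding genes, 38.4% had such a peak in all 9 strains and 56.8% in at least 1.

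Most of the promoters had a listed peak in every strain. A peak within 1 kb of the principal start was called in all 9 strains at 8 of the 10 genes, against 38.4% of 22359 protein-coding genes, and in at least 1 strain at all 10 genes, against 56.8%. The 2 exceptions were Dnmt3b, with a peak in 3 strains, and Sirt1, with a peak in 5. Over the 8 genes, the median percentile was 75.1, against 84.1 for all genes with a peak in 9 strains, and the median SD over strains was 7.98, against 6.55 points. The peaks of these genes were thus of modest to high rank in their lists, with medians from 39.3 (Dnmt3a) to 96.1 (Morc2a). Ranks at single sites are given as percentiles.

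**Figure D1:**
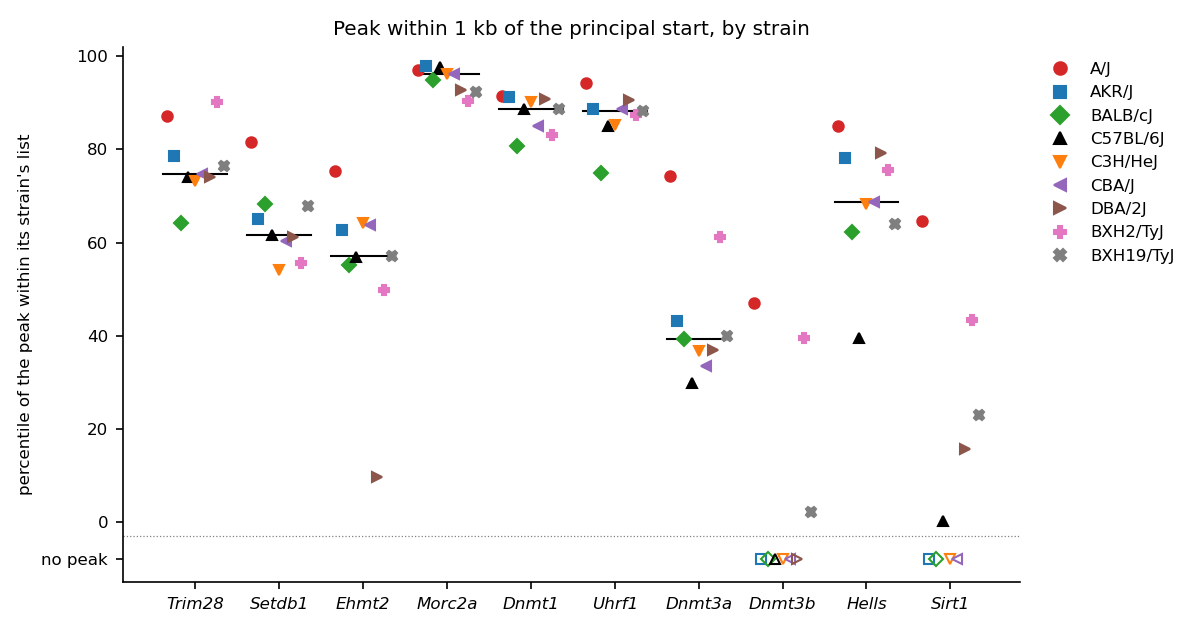
Percentile of the highest peak within 1 kb of the principal start of each gene (vertical axis, percentile of the F-seq score within the strain's list) for the 10 genes (horizontal axis), with 1 point per strain and a bar at the median where all 9 strains have a peak. Open points below the dotted line stand for strains with no peak. Morc2a, Dnmt1 and Uhrf1 lie highest, and Dnmt3b and Sirt1 have no peak in 6 and 4 strains.

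The promoters of 4 genes are printed because they span this range. Dnmt1 was called high in every strain, Hells was called in every strain at ranks that differ widely, and Dnmt3b and Sirt1 were called in part of the strains. Each runs 5′ to 3′ on the gene's strand from 200 bases before the principal start to 10 bases after it, taken from the mm9 assembly (C57BL/6J), so that SNPs of other strains are not shown, with CpG dinucleotides in capitals. The positions are chr9:20757308-20757517 for Dnmt1 (minus strand), chr19:39005205-39005414 for Hells (plus strand), chr2:153474990-153475199 for Dnmt3b (plus strand) and chr10:62801774-62801983 for Sirt1 (minus strand). The Sirt1 and Dnmt3b stretches hold 80.5% and 78.6% GC, with 30 and 21 CpG, and those of Hells and Dnmt1 hold 65.2% and 64.8%, with 19 and 13 CpG.
Dnmt1 promoter: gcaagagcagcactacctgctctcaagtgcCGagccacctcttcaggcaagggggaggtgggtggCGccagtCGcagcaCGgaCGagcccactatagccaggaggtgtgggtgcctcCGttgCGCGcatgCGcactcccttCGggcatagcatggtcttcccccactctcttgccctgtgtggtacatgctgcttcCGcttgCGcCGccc
Hells promoter: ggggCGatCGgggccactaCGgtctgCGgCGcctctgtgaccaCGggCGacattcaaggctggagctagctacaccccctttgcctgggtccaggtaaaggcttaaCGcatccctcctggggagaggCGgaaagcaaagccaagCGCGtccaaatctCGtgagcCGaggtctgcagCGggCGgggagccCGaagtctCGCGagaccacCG
Dnmt3b promoter: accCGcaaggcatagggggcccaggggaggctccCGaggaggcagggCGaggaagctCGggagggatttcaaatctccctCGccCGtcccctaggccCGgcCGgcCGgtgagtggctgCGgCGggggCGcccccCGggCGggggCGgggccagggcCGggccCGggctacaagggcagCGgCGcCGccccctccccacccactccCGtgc
Sirt1 promoter: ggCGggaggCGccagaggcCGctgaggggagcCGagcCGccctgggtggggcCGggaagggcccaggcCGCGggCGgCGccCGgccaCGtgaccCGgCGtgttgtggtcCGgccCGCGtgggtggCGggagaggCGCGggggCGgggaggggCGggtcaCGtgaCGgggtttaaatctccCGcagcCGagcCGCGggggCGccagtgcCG

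Trim28 (mm9 chr7:13609501-13616384, plus strand) had a promoter site of 1455 bp over its first exon that was called in all 9 strains, at 64.3 in BALB/cJ, 90.2 in BXH2/TyJ and a median of 74.8. A flanking site upstream of the start was called in 6 strains, at 59.5 in A/J, 39.0 in C3H/HeJ and 10.7 to 29.3 in AKR/J, BALB/cJ, CBA/J and BXH2/TyJ. No peak was called there in C57BL/6J, DBA/2J and BXH19/TyJ. Promoters of the neighbouring genes Zbtb45, Chmp2a and Ube2m were called in all 9 strains, with medians of 67.1, 82.7 and 84.6. The sites at Chmp2a, a subunit of the ESCRT-III membrane complex, and at Ube2m, a NEDD8-conjugating enzyme, are in the authors' list of the least variable (common) sites.

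Of the 3 sites in the authors' list of variable sites, 2 lay near Trim28, and both fall wholly within coding sequence of neighbouring zinc finger genes. The authors chose that list on read counts from the same livers of the 7 inbred strains, so it is not independent of the peaks. Trim28 site 2 (chr7:13592390-13593643) lies in a coding exon of Zbtb45 and was called in A/J at 38.8, in DBA/2J at 24.8 and in BXH2/TyJ at 17.2. Trim28 site 9 (chr7:13628638-13630010) lies in a coding exon of Mzf1 and was called at 29.9 in A/J and in no other strain. Their GC contents were 64.5% and 66.7%, against a median of 53.9% over all sites. The 200 bases around the median summit of each are printed to show this composition, on the plus strand of mm9, with CpG in capitals, at chr7:13593024-13593223 for site 2 and chr7:13629240-13629439 for site 9. They hold 18 and 25 CpG.
Trim28 site 2: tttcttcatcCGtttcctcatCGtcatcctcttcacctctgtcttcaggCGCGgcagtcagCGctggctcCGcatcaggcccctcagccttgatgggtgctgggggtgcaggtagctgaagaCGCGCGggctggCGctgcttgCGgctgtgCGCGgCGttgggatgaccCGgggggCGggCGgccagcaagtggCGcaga
Trim28 site 9: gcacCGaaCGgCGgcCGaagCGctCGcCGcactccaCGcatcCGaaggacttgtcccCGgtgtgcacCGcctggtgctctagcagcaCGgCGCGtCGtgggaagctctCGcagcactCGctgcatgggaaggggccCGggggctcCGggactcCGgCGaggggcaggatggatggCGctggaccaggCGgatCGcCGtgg

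Setdb1 (chr3:95127447-95161124, minus strand) had a promoter site of 420 bp in all 9 strains, at 54.0 in C3H/HeJ, 81.7 in A/J and a median of 61.6. Its 4 other sites lie at the downstream end around the start of Lass2, a ceramide synthase, and 2 of them were called in all 9 strains. The outer one ranked at 98.5 in BXH2/TyJ and 97.2 in A/J, against 62.4 in C57BL/6J. The inner one, 749 bp wide, ranked at 47.2 in A/J, against 84.8 in C57BL/6J. The remaining Lass2 sites were called in 5 strains at up to 21.3 and in 3 strains at up to 25.8. The order of A/J and C57BL/6J was thus opposite at the outer and inner sites, which hold 65.0% and 51.7% GC.

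Ehmt2 (chr17:35035414-35050997, plus strand) lies in the class III region of the major histocompatibility complex, between C2 and Neu1. The site over its start was called in 8 strains, at 48.6 in BXH2/TyJ, 75.3 in A/J and a median of 59.9, and not in DBA/2J. It also lies within 1 kb of a start of C2, a complement gene. In DBA/2J a flanking site within the gene was called instead, at 9.7, so that a peak within 1 kb of the start was listed in all 9 strains. This flanking site was also called at 58.5 in A/J and 49.8 in BXH2/TyJ, at 16.3 in C3H/HeJ and at 0.9 in BXH19/TyJ. DBA/2J was also lowest at Ehmt2 site 10 in Neu1, at 17.7, against 36.7 to 64.2 in the other 8 strains. The promoter of Neu1, a lysosomal sialidase, ranked at 92.3 in A/J and up to 99.5 in CBA/J, and is in the common list. The sites at the starts of C2 and Zbtb12 before the gene were called in all 9 strains, from 26.0 and 38.3 in C57BL/6J to 69.1 in A/J and 83.0 in BXH2/TyJ. Ehmt2 sites 3 and 6 were called in A/J alone, at 27.5 and 32.0, and a site at Slc44a4 at 41.4 in A/J and 2.2 in CBA/J. Away from any start, Ehmt2 site 7 was called at 40.8 in A/J, 18.2 in DBA/2J and 13.4 in AKR/J.

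Morc2a (chr11:3549497-3590480, plus strand) had 1 site, with the highest median of the 10 promoters. Ranks ran from 90.3 in BXH2/TyJ to 97.9 in AKR/J with a median of 96.1. The 1617 bp site also covers the start of Tug1, a long noncoding RNA gene on the opposite strand, and the summits lie at -394 to -352 bp from the start of Morc2a. The share of each gene in this peak cannot be told apart. The SD over strains was 2.65 points, the smallest of the 10 promoters.

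Dnmt1 (chr9:20711650-20757317, minus strand) and Uhrf1 (chr17:56442744-56462909, plus strand), which act together in maintenance methylation, both had highly ranked promoter peaks in every strain. Dnmt1 ranked at 80.7 in BALB/cJ, 91.5 in A/J and a median of 88.7, with an SD of 3.88 points. Uhrf1 ranked at 74.9 in BALB/cJ, 94.2 in A/J and a median of 88.2, with an SD of 5.32 points. Both were lowest in BALB/cJ and highest in A/J. The summits lay at -84 to -63 bp from the principal start at Dnmt1 and at 855 to 877 bp at Uhrf1.

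Around Dnmt1, the promoters of Ppan and Eif3g beyond its downstream end were called in all 9 strains, with medians of 90.6 and 63.0. A further 3 sites in this stretch were called in A/J alone, at 4.4, 5.4 and 18.7, and each overlaps coding sequence of Ppan or Eif3g. Around Uhrf1, the promoters of Plin3, a lipid droplet coat protein, and Kdm4b, a histone demethylase, ranked at medians of 88.3 and 97.4. Uhrf1 site 1, over an intron and a coding exon of Plin3, was the only one of the 73 sites called in C3H/HeJ and BXH19/TyJ and not in C57BL/6J and BXH2/TyJ. It ranked at 34.6 in C3H/HeJ, 21.8 in A/J and 4.7 in BXH19/TyJ. Over all sites, 2.29% were called in C3H/HeJ and BXH19/TyJ and not in C57BL/6J and BXH2/TyJ, so 1 site in 73 is no excess. The 200 bases around the median summit of Uhrf1 site 1 are printed as the example of this pattern of calls (chr17:56427330-56427529, plus strand, CpG in capitals). They hold 2 CpG.
Uhrf1 site 1: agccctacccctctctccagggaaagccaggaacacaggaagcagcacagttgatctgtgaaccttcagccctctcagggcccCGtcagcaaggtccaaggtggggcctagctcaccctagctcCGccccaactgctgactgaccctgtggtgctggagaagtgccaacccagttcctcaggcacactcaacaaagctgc

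Dnmt3a (chr12:3806007-3914443, plus strand) is the longest of the 10 genes at 108.4 kb and held 24 of the 73 sites, of which 8 were called in all 9 strains. The number of its sites called was 22 in A/J, 15 in BXH2/TyJ, 14 in C3H/HeJ and 9 to 12 in the other strains. The principal promoter was called in every strain but at modest rank, with 74.2 in A/J, 61.2 in BXH2/TyJ and 29.9 to 43.1 in the other 7 strains. A/J and BXH2/TyJ lay above all other strains there. The next site within the intron, 1277 bp wide, was called at 61.6 in A/J, 45.9 in BXH2/TyJ, 14.6 in BALB/cJ and 6.2 in C3H/HeJ.

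At the sites called in all strains toward the 3′ end of the gene, A/J was the lowest strain. An annotated start of Dnmt3a lay within 1 kb of 8 of the 24 sites, and 5 of these 8 were called in all 9 strains. The remaining 3 were the intronic site beside the principal promoter, Dnmt3a site 14, called at 33.4 in A/J alone, and Dnmt3a site 20, called at 54.6 in A/J and 14.1 in BXH2/TyJ. At Dnmt3a site 22, 88418 bp from the principal start, ranks were 14.8 in A/J, 26.3 in DBA/2J and 32.5 in AKR/J, against 85.8 in C3H/HeJ and a median of 60.7. At Dnmt3a site 23 in a 3′ exon, A/J ranked at 46.1, against 63.8 to 84.7 in the other strains. Of the 8 sites called everywhere, A/J was lowest at 4 and highest at 1. The principal promoter holds 70.8% GC, and sites 22 and 23 hold 51.5% and 52.5%.

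AKR/J stood apart at Dnmt3a site 16 in an intron, with 12.2, against 55.8 to 75.8 in the other 8 strains, and at Dnmt3a site 18, where it alone had no peak. Dnmt3a site 9, an intronic site in the common list, was called at only 15.7 in A/J, 15.2 in BXH2/TyJ and 11.9 in C3H/HeJ. Dnmt3a site 12, near the start of the predicted gene Gm10485, was called in BALB/cJ, C57BL/6J, CBA/J and DBA/2J at 21.4 to 38.4 and has a GC content of 40.3%. Downstream of the gene, Dnmt3a site 24 had the largest SD of the sites away from a start, 25.8 points. It ranked at 64.5 in C3H/HeJ, 55.1 in BALB/cJ, 54.6 in CBA/J, 35.8 in BXH19/TyJ, 34.9 in A/J and 17.4 in BXH2/TyJ, and was not called in AKR/J, C57BL/6J and DBA/2J.

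Its central 200 bases, printed because the site is present in C3H/HeJ and both recombinant strains and was not called in C57BL/6J, lie at chr12:3919522-3919721 (plus strand) outside any annotated gene. CpG dinucleotides, of which there are 2, are in capitals.
Dnmt3a site 24: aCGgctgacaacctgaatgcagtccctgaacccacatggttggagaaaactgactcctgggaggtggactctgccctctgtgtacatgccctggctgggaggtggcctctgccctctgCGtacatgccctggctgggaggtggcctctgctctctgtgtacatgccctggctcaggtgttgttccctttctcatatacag

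**Figure D2:**
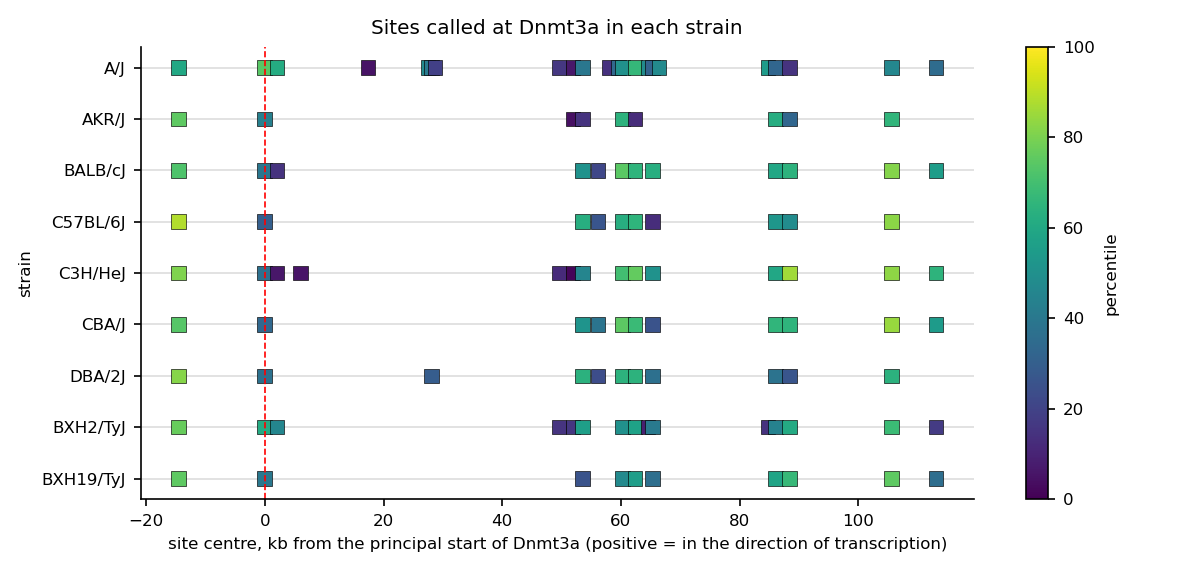
Sites called at Dnmt3a in each strain (rows), placed by the distance of the site's centre from the principal start in kb (horizontal axis, dashed line at 0) and coloured by percentile within the strain's list. A/J has 22 of the 24 sites, with a higher rank than the other strains at the start and lower ranks toward the 3′ end of the gene.

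Dnmt3b (chr2:153475186-153513466, plus strand) had a promoter peak at 47.1 in A/J, 39.5 in BXH2/TyJ and 2.2 in BXH19/TyJ, and no peak in the other 6 strains. The 982 bp site holds 68.1% GC and 95 CpG and overlaps an exon of 7530422B04Rik. Dnmt3b site 3 in an intron was called in 5 strains, at 46.2 in A/J, 41.3 in DBA/2J, 24.8 in AKR/J, 20.5 in C3H/HeJ and 4.0 in CBA/J. The promoter of its neighbour Commd7 was called in all 9 strains, from 46.8 in C57BL/6J to 83.4 in A/J.

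Hells (chr19:39005405-39045541, plus strand) had a single site, its promoter, with summits at -27 to 3 bp from the principal start. It ranked at 85.1 in A/J, 79.2 in DBA/2J, 78.1 in AKR/J and 75.5 in BXH2/TyJ, against 62.3 to 68.7 in CBA/J, C3H/HeJ, BXH19/TyJ and BALB/cJ. C57BL/6J was lowest at 39.6, apart from the other 8 strains. The SD of 13.4 points was larger than at Dnmt1 or Uhrf1.

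Sirt1 (chr10:62781753-62844452, minus strand, principal start at 62801783) had a promoter peak at 64.7 in A/J, 43.3 in BXH2/TyJ, 23.0 in BXH19/TyJ, 15.6 in DBA/2J and 0.2 in C57BL/6J. No peak was called there in AKR/J, BALB/cJ, C3H/HeJ and CBA/J. The value in C57BL/6J is among the lowest peaks of that list, so that presence there lies next to the limit of the caller. A short site of 257 bp that overlaps the first coding exon, with 79.4% GC, was called at 6.2 in A/J alone and is the remaining site in the variable list. A site of 305 bp further in was called at 4.5 in BALB/cJ alone.

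At the other end of the annotated Sirt1 locus, an alternative start lies beside the start of Dnajc12, a heat-shock protein cofactor. There A/J was the lowest strain, at 27.3, against 68.2 to 85.5 in the other 8 strains, and the site holds 47.0% GC. The adjoining Sirt1 site 7 was called in 8 strains at 8.9 to 68.9 and not in A/J. Between the 2 ends, Sirt1 site 4 in an intron was called at 34.6 in BALB/cJ, 10.8 in AKR/J and 4.9 in C57BL/6J, and Sirt1 site 5 in 8 strains, at 1.0 in A/J and up to 46.0 in BXH2/TyJ.

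**Figure D3:**
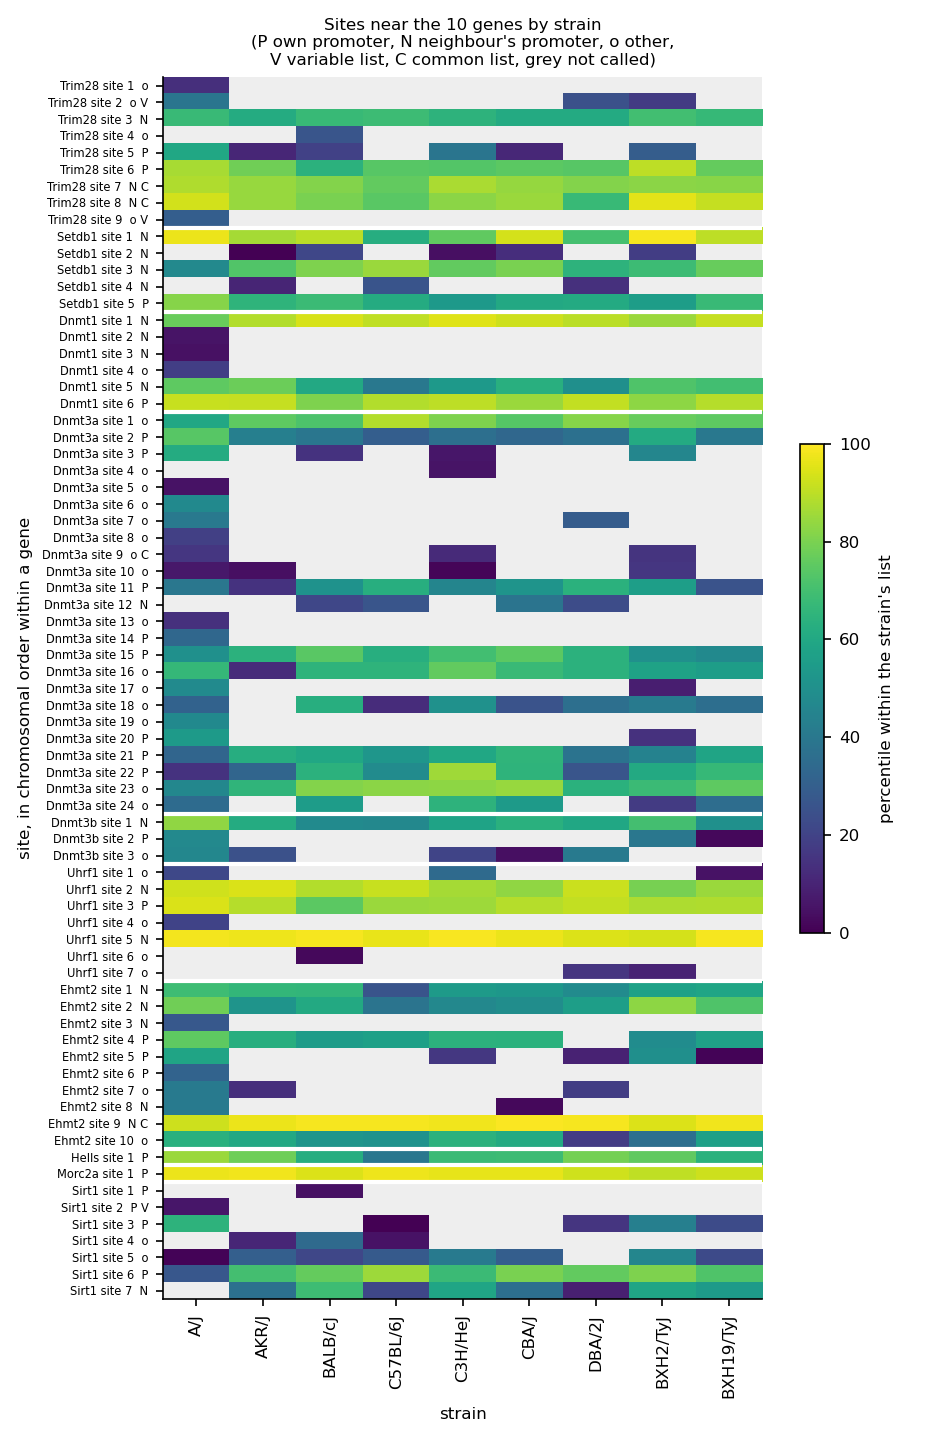
All 73 sites (rows, in chromosomal order within a gene) by strain (columns), coloured by percentile within the strain's list, with grey where no peak was called. P marks the gene's own promoter, N a neighbour's promoter, o other sites, V the variable list and C the common list. Rows with colour in all 9 columns are 29, and 15 rows have colour in the A/J column only.

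By position, promoter sites were shared by the strains more often than distal ones, at these genes as over the genome. Of the 23 sites within 1 kb of a start of the genes themselves, 12 (52.2%, 95% exact Clopper-Pearson interval 30.6 to 73.2%, counting error only) were called in all 9 strains, against 50.3% of all sites at a start of a protein-coding gene. Of the 21 sites at the start of a neighbouring gene, 13 (61.9%, 38.4 to 81.9%) were called in all 9 strains. Of the 29 other sites, 4 (13.8%, 3.89 to 31.7%) were, against 14.4% of all sites with no start within 1 kb. These shares were near the background. Over all 73 sites, 29 (39.7%, 28.5 to 51.9%) were called in all 9 strains, against 26.6%, and 19 (26.0%) in a single strain, against 26.5%. These 2 sets of sites mix the classes in unlike proportions. No start lay within 1 kb of 29 of the 73 sites, against 33535 of all 51957 sites. The 39.7% and 26.6% are therefore not like for like.

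The median SD of percentiles over strains was 11.3 points at the 73 sites, against 11.1 points at all sites, a missing peak counting as 0. The variable list held 3 of the sites (all sites, 4.87%), and the common list held 4, namely those at Chmp2a, Ube2m and Neu1 and the intronic Dnmt3a site 9 (all sites, 4.89%). None of these sites covers the principal start of one of the 10 genes. When A/J was left out, 1 site remained in the variable list, Trim28 site 2, and the common list still held 4.

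Strains differed in the number of sites called. In A/J 63 of the 73 sites were called (86.3%), against 54.5% of all sites. In BXH2/TyJ 46 were called (63.0%, against 54.8% of all sites), and in DBA/2J 40 (54.8%, against 46.7%). In the other strains 37 (C57BL/6J) to 43 (C3H/HeJ) were called. These shares are not like for like with those of all sites, since the classes are mixed in unlike proportions. The median GC content was also higher at the 73 sites, 58.7% against 53.9% over all sites. The part of position and GC content in these shares was not tested. Of the 19 sites of a single strain, 15 were found in A/J, 3 in BALB/cJ and 1 in C3H/HeJ. Over all sites of a single strain, the share of A/J was 43%.

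**Figure D4:**
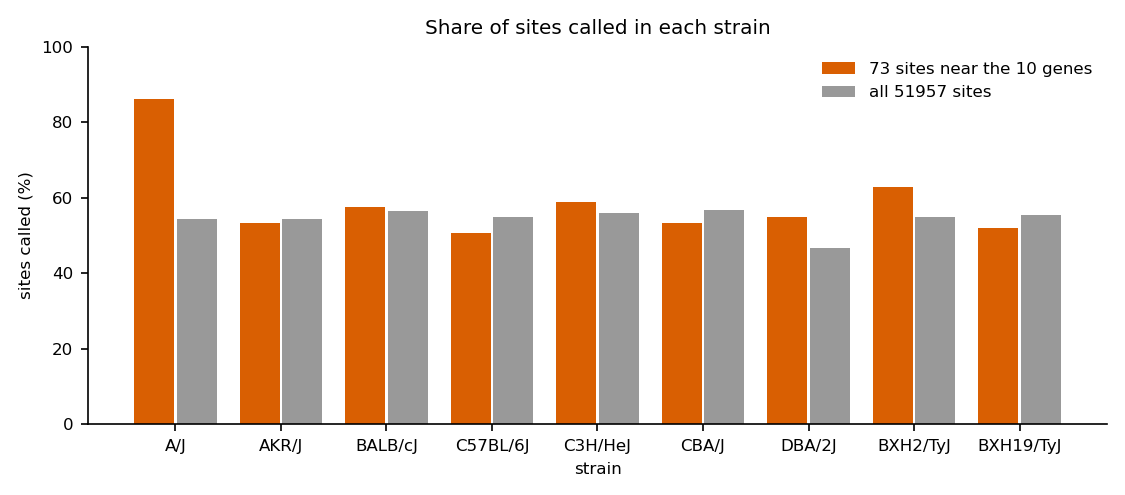
Share of sites called in each strain (vertical axis, percent, from 0), for the 73 sites near the 10 genes (orange) and all 51957 sites (grey). A/J reaches 86.3% of the sites near the genes, against 54.5% of all sites, and the other strains reach 50.7 to 63.0% of the sites near the genes. The sites near the genes and all sites differ in GC content and in the share that lies at a start.

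The sites called in A/J alone were spread over 6 of the 10 genes, with 6 at Dnmt3a, 3 at Dnmt1, 2 each at Trim28 and Ehmt2 and 1 each at Uhrf1 and Sirt1. They were of low rank, from 4.4 to 47.6 with a median of 19.1. Of these 15 sites, 11 overlapped coding sequence (73.3%), against 1 of the 4 sites called in a single other strain. Over all sites, coding sequence was overlapped by 42.3% of those called in A/J alone and by 8.23% of those called in a single other strain. The A/J sites had a median GC content of 59.7%, against 54.8% in the 4 sites of other strains. Over all sites the same medians were 61.4% and 50.4%. The part of GC content in the calls of A/J was not tested.

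Ranks in A/J moved with GC content as well. At the 29 sites called in all 9 strains, the percentile in A/J minus the median of the other 8 strains had a Pearson's r of 0.75 and a Spearman's rho of 0.70 with the GC content of the site (over all 13811 such sites, 0.60 and 0.61). In BXH2/TyJ the values were 0.44 and 0.42 (over all sites, 0.42 and 0.45), and in C57BL/6J they were -0.47 and -0.49 (over all sites, -0.37 and -0.39). AKR/J had 0.45 and 0.44, like BXH2/TyJ, but 0.11 and 0.14 over all sites. BALB/cJ (-0.48 and -0.50) and CBA/J (-0.48 and -0.51) were as negative as C57BL/6J, with -0.32 and -0.40 in BALB/cJ and -0.21 and -0.26 in CBA/J over all sites. C3H/HeJ had -0.40 and -0.40 (over all sites, -0.15 and -0.20), BXH19/TyJ 0.32 and 0.26 (0.01 and -0.02) and DBA/2J 0.05 and -0.05 (-0.08 and -0.06). These are descriptions across sites, which share their libraries and base composition, and no p is given. A/J was the highest strain at 8 of the 29 sites and the lowest at 8, against 21.4% and 30.1% of all 13811 sites.

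**Figure D5:**
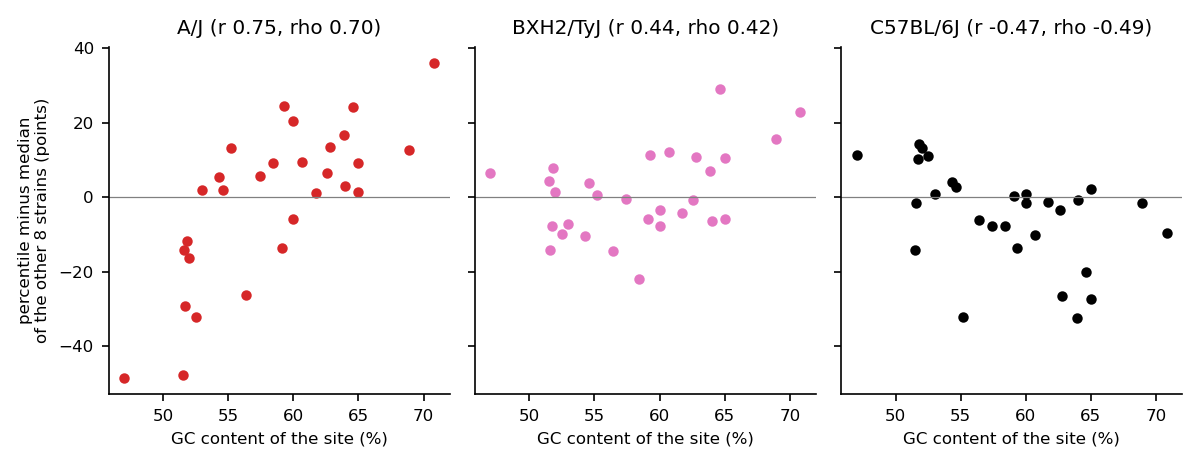
Percentile of a strain minus the median of the other 8 strains (vertical axis, points) against the GC content of the site (horizontal axis, percent) for 3 of the 9 strains (A/J, BXH2/TyJ and C57BL/6J), with 1 point for each of the 29 sites called in all 9 strains. Points rise with GC content in A/J (r 0.75) and BXH2/TyJ (r 0.44) and fall in C57BL/6J (r -0.47).

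At the principal promoters, A/J ranked highest at 6 of the 8 genes with a peak in all strains, against 28.6% of all such genes, and also at Dnmt3b and Sirt1. It was lowest at none of them, against 19.6%. BALB/cJ was lowest at 3 of the 8 (Trim28, Dnmt1 and Uhrf1), against 10.3%, and C57BL/6J at 2 (Dnmt3a and Hells), against 21.2%. The windows from 250 bp before to 50 bp after the 10 principal starts had a median of 66.2% GC and 28 CpG, against 55.3% and 12 over all promoters and 61.0% and 21 over promoters with a peak in all 9 strains. The part of this composition in the order of the strains was not tested.

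BXH2/TyJ and BXH19/TyJ descend from C57BL/6J and C3H/HeJ, so that each site can be set beside both parents. Of the 73 sites, 33 were called in both parents, and all 33 were called in both recombinant strains, against 89.9% (BXH2/TyJ) and 93.9% (BXH19/TyJ) of all sites of this kind. C3H/HeJ alone of the parents had 10 sites, of which 7 were called in BXH2/TyJ and 3 in BXH19/TyJ, against 44.4% and 47.3% over all sites. C57BL/6J alone had 4, of which 1 was called in each, against 32.4% and 33.6%. It was the same site in both, Sirt1 site 3 at the promoter, which ranked at only 0.2 in C57BL/6J. Of 26 sites called in neither parent, 5 were called in BXH2/TyJ and 1 in BXH19/TyJ. Over all sites with no peak in either parent, 19.6% were called in BXH2/TyJ and 14.8% in BXH19/TyJ. The pattern of C57BL/6J and BXH2/TyJ without C3H/HeJ and BXH19/TyJ was found at 0 of the 73 sites (all sites, 2.01%), and the reverse pattern at 1, Uhrf1 site 1 (all sites, 2.29%). The promoters of Dnmt3b and Sirt1 were called in both recombinant strains, with no peak in either parent at Dnmt3b and the rank of 0.2 in C57BL/6J at Sirt1. Genotypes at these loci were not analysed here.

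Motifs were searched in the same promoter windows on both strands as exact strings. The 10 windows had a median of 66.2% GC and 28 CpG, against 55.3% and 12 over all promoters. The shares over all promoters are therefore not matched in base composition. The SP/KLF string GGGCGG was found at all 10 genes, with 7 matches at Sirt1 and 4 at Dnmt3b, and in 44.1% of all promoters. The NF-Y string CCAAT was found at 4 genes (Setdb1, Dnmt1, Uhrf1 and Morc2a), and in 37.9%. An E2F string (TTTCCCGC, TTTGGCGC or TTTCGCGC) was found 31 bp after the start of Dnmt1 and 13 bp after that of Hells, and in 2.36% of all promoters. E2F factors drive genes of DNA replication. The NRF1 string GCGCANGCG was found at Dnmt1 and Ehmt2, and in 8.14%. At Dnmt1 the matches at -77 and -76 bp from the start overlap each other and stand in the printed promoter, close to the summits. The strings of ETS (CCGGAAGT), CRE (TGACGTCA), YY1 (AAGATGGC), HNF4A (CAAAGTCCA), CTCF (CNAGGGGGC) and C/EBP (TTGCGCAA or TTGCACAA) were found in none of the 10 windows, and in 0.479 to 4.81% of all promoters. Over the whole promoter sites, YY1 strings were found at 2 genes, ETS and CTCF strings at 1 each, NRF1 strings at 4, NF-Y strings at 6 and E2F strings at 3, and those of CRE, HNF4A and C/EBP at none. The whole sites are longer than the windows, and no share over all genes was counted for them. The shares given for the windows therefore do not apply to the counts in whole sites. A match is a string of letters and does not show that a factor binds.

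Other genes listed beside the silencing pathways were described in the same way. Not all of them silence, as the list also holds the methylcytosine dioxygenase genes Tet1, Tet2 and Tet3. Of 32 listed genes 31 had a single gene of that name, and 24 of these had a promoter peak in all 9 strains, 5 in some and 2 in none. Over all protein-coding genes, 38.4% had such a peak in all 9 strains and 56.8% in at least 1. The 24 include Suv39h1 and Suv39h2, the H3 lysine 9 methyltransferases of constitutive heterochromatin, and Mphosph8 and Fam208a (annotated as D14Abb1e) of the HUSH complex. Their median percentiles ran from 40.2 at Atrx to 98.8 at Morc3. The genes without a peak in any strain were Dnmt3l, a cofactor of de novo methylation in germ cells, and Tet1, a methylcytosine dioxygenase. Ehmt1, the partner of EHMT2, was called in 8 strains at 10.6 (C57BL/6J) to 76.7 (BXH2/TyJ) and not in DBA/2J. By the same measure, a peak within 1 kb of the principal start, Ehmt2 was called in DBA/2J at 9.7. Cbx5, which encodes HP1 alpha, was called in 5 strains at up to 52.1 (A/J), and Rnf2, a Polycomb ubiquitin ligase, in 6 at up to 91.3 (BXH2/TyJ).

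Pphln1 of the HUSH complex was called in 8 strains at 9.8 (AKR/J) to 84.1 (A/J) and not in C57BL/6J, and the deacetylase gene Hdac2 in 8 at 25.0 (C57BL/6J) and a median of 52.1, and not in DBA/2J. At the 5 genes called in some strains, a peak was missing in DBA/2J at 4, in C57BL/6J at 2, and in A/J, BXH2/TyJ and BXH19/TyJ at none. DBA/2J also had the shortest list of peaks. Of 119 sites near the listed genes, 4 were in the variable list (all sites, 4.87%). They lay near Daxx, a histone chaperone, and Tet3, a methylcytosine dioxygenase, with 2 each. The common list also held 4 of the 119 (all sites, 4.89%).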

How the data were processed

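The authors aligned FAIRE-seq reads with Bowtie (bowtie1) to mm9, carrying the strain's own SNPs for the inbred strains other than C57BL/6J, discarded reads that mapped to several places, were improperly paired or were PCR duplicates, ran F-seq (feature length 400 bp) on each library and combined the 2 replicates by the irreproducible discovery rate. Recombinant strains were aligned both to mm9 and to its C3H/HeJ version, and which alignment gave their lists is not stated. The threshold of the discovery rate and further tool versions are likewise not stated in the sources used here. As deposited, the score is the F-seq signal value, with no stated scaling between strains, and the other deposited values are positions. The authors chose the variable and common lists, of 2539 sites each, with DESeq on quantile-normalized read counts of the 7 inbred strains. Reads were not analysed here, so depth per site is unknown.

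The 9 lists were merged into 51957 sites, scores were ranked within a list, and the highest overlapping peak gave a site its percentile. Genes and starts came from GENCODE M1 and sequence from NCBIM37 (mm9). The principal start is the most used start of the largest cluster of coding transcripts, and a site within 1000 bp of any start of a gene counted as its promoter. All 10 genes are named, with their promoter sites, sites in either list, at neighbouring starts or with parental patterns, and, for each gene, the distal site called in 2 to 7 strains with the largest SD. Members and lists were chosen with earlier results of these data known, and no test was made. Alternatives were other windows, the 20000 highest peaks, strains left out and other overlaps. Merging and calling were tested on simulated data. Tools were samtools 1.23.1 and Python 3.11.15 with scipy 1.17.1, pandas 2.3.3, numpy 2.4.6, matplotlib 3.10.9 and pysam 0.24.0.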

Additional observations from a re-analysis of the deposited data

How the results depend on the processing

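Shares of own-promoter and of other sites called in all strains stayed within their counting interval under every alternative that was run. The median spread, the parental pattern, the count of other listed genes and the E2F matches (2 genes, or 3 in whole promoter sites) moved within 1.5 times. The counting interval of the own-promoter share is wide, 30.6 to 73.2%. Within it, the share fell from 52.2% to 35% (7 of 20) among the 20000 highest peaks. The share over all promoter sites was not computed for that cut. The number of sites was 134 with 50 kb on either side and 40 within the gene bodies alone. The 3 variable-list sites became 1 with 10 kb on either side, in gene bodies alone, among the 20000 highest peaks of each strain, without A/J, and without A/J and BXH2/TyJ (chosen after seeing the data). The common-list count was 9 with 50 kb and 1 in gene bodies alone. Without A/J 61 sites were left, and 4 of the 20 other sites were called in all remaining strains. The count of 8 of 10 genes with a promoter peak in all 9 strains was not stable. Among the 20000 highest peaks, Dnmt3a had a promoter peak in 7 of 9 strains and Ehmt2 in 8. Ehmt2 also had a peak in 8 strains when the promoter reach was shorter than 1000 bp. The remaining genes of the 8 kept a peak in every strain under both settings. Sirt1 had a promoter peak in 2 of 9 strains among the 20000 highest peaks. Dnmt3b had a promoter peak in 1 of the 7 inbred strains, as also without A/J and BXH2/TyJ. No paired analysis was possible because each list combines both mice of a strain, and for the same reason no replicate could be left out. With 1 list per strain, a difference between strains cannot be told apart from one between libraries, and peaks near the caller's limit, such as Sirt1 in C57BL/6J at 0.2, carry the least certain calls.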

Other observations

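At the 8 principal promoters with a peak in all strains, the median percentile by strain was 86.1 in A/J, 79.3 in BXH2/TyJ, 78.3 in AKR/J, 76.6 in DBA/2J, 72.1 in BXH19/TyJ, 71.8 in CBA/J, 70.8 in C3H/HeJ, 67.8 in C57BL/6J and 66.3 in BALB/cJ. Over all genes with a peak in 9 strains these medians stayed between 81.9 (C57BL/6J and DBA/2J) and 85.2 (BXH2/TyJ). A/J was thus near the median of all genes, and the other 8 strains were below it. The widest promoter peak lay in A/J at 7 of the 10 genes and in BXH2/TyJ at 3. The same count was not made over all genes, so whether it is particular to these genes is unknown. Over the whole lists, the median peak width was 528 bp in A/J, 482 bp in BXH2/TyJ, 376 bp in DBA/2J and 542 bp in BALB/cJ.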
